A study of Homo sapiens with 32 samples.

Results

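The nuclear-encoded respiratory chain genes were taken as every gene of the deposited count table whose symbol begins with NDUFA, NDUFB, NDUFC, NDUFS or NDUFV and a digit (complex I), is SDHA, SDHB, SDHC or SDHD (complex II), or begins with UQCR (complex III), with COX4 to COX8 and a letter A to C (complex IV) or with ATP5 (complex V, the ATP synthase). Of 231 rows with such symbols, 141 pseudogenes were left out, and 6 rows with fewer than 200 counts summed over the 32 libraries were left out as well. That left 84 genes of the 60332 rows in the table: 42 of complex I, 5 of complex II, 9 of complex III, 11 of complex IV and 17 of complex V. Of these, 76 encode subunits, and the other 8 are 3 antisense RNAs, 2 read-through transcripts, a second row named SDHD, the near copy UQCRHL and ATP5S. No measured value other than the summed count entered the choice. NDUFA4 stands under complex I by its symbol, although its product is known as a subunit of complex IV, and COX4I1 and NDUFAB1, which are also subunits, have symbols outside the rule and are given with the assembly genes.

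Complexes I and II pass electrons from NADH and succinate to ubiquinone, complex III passes them on to cytochrome c and complex IV to oxygen, while complexes I, III and IV pump protons across the inner mitochondrial membrane. The ATP synthase lets the protons flow back and makes ATP. Most subunits are encoded in the nucleus and imported, a few are encoded in mitochondrial DNA, and the nuclear genes are known targets of NRF1, of ETS-family factors such as GABPA, of YY1, and of the estrogen-related receptors with their PGC-1 coactivators.

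The libraries were made from poly-A selected RNA of 2 human cell lines that are not derived from tumours: MCF10A breast epithelial cells and hTERT RPE-1 retinal pigment epithelial cells, the latter kept growing by telomerase. There were 16 groups of 2 libraries. In the first MCF10A experiment, wild-type cells were left untreated, were collected 3 or 5 days after 10 Gy of ionizing radiation with DMSO, or were collected 5 days after 10 Gy with a CDK1 inhibitor (CDK1i), and cGAS KO, STING KO and XRCC4 KO cells were collected 5 days after 10 Gy. cGAS is a sensor of cytosolic DNA, STING relays its signal, and XRCC4 is a factor of non-homologous end joining, a pathway that repairs DNA breaks. In the second MCF10A experiment, all cells had received 10 Gy 3 days earlier: WT, p53 KO, XRCC4 KO, XRCC4 p53 DKO (both genes knocked out), and XRCC4 KO and DKO with an inhibitor of the checkpoint kinase ATR (ATRi). In the third, all hTERT RPE-1 cells had received 10 Gy and ATRi 3 days earlier: WT, p53 KO, and a group labelled WT cGAS. Knockouts were single-cell clones made with lentiviral Cas9 and guide vectors, so a KO group holds what that clone carries besides the edit, and no unirradiated KO cells were sequenced. The labels name DMSO for the irradiated WT groups of the first experiment only. Drugs were present from 1 h before irradiation to collection.

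Estimated counts summed to between 5590061 and 18585999 per library. Levels below are CPM, counts scaled to a common library total with TMM factors, which set the bulk of genes equal between libraries, and differences are log2 fold changes with standard errors (SE) from edgeR's quasi-likelihood test. A gene was called where the Benjamini-Hochberg adjusted p over all genes tested was below 0.05. Some counts are given without a share over all genes. They are those at an unadjusted p under 0.05, without 1 library, with a replicate block, or from a fit of only the libraries compared. Some counts with no filter on low counts or on FPKM in the closing sections also lack a share. Such counts do not set these genes against the rest. The filter on low counts kept 83, 82 and 83 of the 84 genes in the 3 experiments. Replicate libraries of the WT groups of the first experiment and of STING KO differed far more than others: the chi-square per gene between replicates was 21.5 to 45.1 there and at most 3.38 in the other groups. Nothing in the labels says whether replicates were separate cultures, so p-values measure the spread between these libraries, which may be technical. The edited genes were checked first. MB21D1, which encodes cGAS, was at 1.24 and 1.30 CPM in cGAS KO against 17.23 and 15.04 in WT 5 days after irradiation. TMEM173 (STING) was at 9.96 and 9.15 CPM in STING KO against 83.3 and 52.9. The p53 target CDKN1A was at 145 and 136 CPM in p53 KO and 180 and 184 in the DKO against 1326 and 1384 in WT. XRCC4 RNA was not lower in XRCC4 KO at 3 days, at 8.80 and 8.35 against 7.06 and 7.14 CPM, which does not test the edit. In RPE-1, CDKN1A was at 182 and 202 CPM in p53 KO against 2112 and 1983 in WT, and MB21D1 was at 339 and 345 CPM in WT cGAS against 0.143 and 6.35 in WT, whose 2 libraries differed in it. KRT5, a basal keratin, had FPKM values of 1731 to 8867 in MCF10A and at most 6.08 in RPE-1. Of the retinal pigment epithelial genes looked at, OTX2 was at 8.24 to 13.4 in RPE-1 and MITF at 5.59 to 12.2. RPE65, TTR and TYR were at most 0.07 there. BEST1, RLBP1 and PMEL were at most 0.90, 0.14 and 1.41 there, and reached 2.21, 0.58 and 2.23 in MCF10A.

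Promoters are shown for 5 genes because each was among the most changed of its complex when XRCC4 was lost, 1 gene per complex. They are RefSeq windows on GRCh38.p14 from 250 bases before to 50 after the annotated start, 5′ to 3′ on the strand of the gene. Capitals mark exact matches, on either strand, to GCGCATGCG (NRF1), CCGGAAG (ETS), AAGATGGC (YY1) or TCAAGGTCA (estrogen-related receptor).
NDUFS7, chr19:1383657-1383956, plus strand: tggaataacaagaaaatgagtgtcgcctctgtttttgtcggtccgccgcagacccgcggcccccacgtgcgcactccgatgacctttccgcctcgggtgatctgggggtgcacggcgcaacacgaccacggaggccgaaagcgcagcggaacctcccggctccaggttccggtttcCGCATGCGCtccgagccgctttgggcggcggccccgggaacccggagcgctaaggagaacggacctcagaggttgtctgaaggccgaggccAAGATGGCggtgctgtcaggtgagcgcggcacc
SDHD, chr11:112086623-112086922, plus strand: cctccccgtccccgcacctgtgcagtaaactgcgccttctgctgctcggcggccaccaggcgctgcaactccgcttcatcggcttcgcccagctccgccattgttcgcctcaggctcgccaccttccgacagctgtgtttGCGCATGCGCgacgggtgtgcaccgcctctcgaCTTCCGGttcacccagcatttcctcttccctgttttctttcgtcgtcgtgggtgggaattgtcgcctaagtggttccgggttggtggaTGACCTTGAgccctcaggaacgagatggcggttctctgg
UQCR11, chr19:1605413-1605712, minus strand: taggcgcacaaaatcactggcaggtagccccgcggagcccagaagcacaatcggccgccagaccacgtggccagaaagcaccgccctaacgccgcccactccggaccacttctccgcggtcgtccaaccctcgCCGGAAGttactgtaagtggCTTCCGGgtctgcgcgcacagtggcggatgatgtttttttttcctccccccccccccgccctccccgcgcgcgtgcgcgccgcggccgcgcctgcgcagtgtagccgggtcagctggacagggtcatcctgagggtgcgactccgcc
COX6B1, chr19:35648073-35648372, plus strand: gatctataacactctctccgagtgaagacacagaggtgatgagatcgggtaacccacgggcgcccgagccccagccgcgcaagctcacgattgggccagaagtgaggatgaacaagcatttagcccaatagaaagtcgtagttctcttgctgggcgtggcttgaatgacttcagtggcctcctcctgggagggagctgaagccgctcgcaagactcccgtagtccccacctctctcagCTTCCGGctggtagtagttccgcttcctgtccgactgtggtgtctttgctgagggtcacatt
ATP5L (now ATP5MG), chr11:118401356-118401655, plus strand: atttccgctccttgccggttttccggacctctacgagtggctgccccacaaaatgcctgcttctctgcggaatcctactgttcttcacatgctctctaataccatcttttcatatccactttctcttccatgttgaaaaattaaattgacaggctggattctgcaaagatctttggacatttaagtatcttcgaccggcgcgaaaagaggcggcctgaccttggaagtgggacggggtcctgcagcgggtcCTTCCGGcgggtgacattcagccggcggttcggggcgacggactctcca
NDUFS7 holds the NRF1 letters 74 bases before the start and the YY1 letters 17 after it. SDHD holds overlapping NRF1 letters on both strands about 110 bases before the start, the ETS letters 77 before it and the receptor letters 11 after it, in the only subunit window with that match. UQCR11 holds the ETS letters at 117 and 97 bases before the start, COX6B1 at 12 before it and ATP5L at its first base. A promoter was matched for 66 of the 84 genes and 62 of the 76 subunits. Among the subunits, 17.74% held the NRF1 letters, against 2.34% of all 27305 genes with a window; 30.65% against 12.16% held the ETS letters, 19.35% against 3.52% the YY1 letters and 1.61% against 0.43% the receptor letters. The plain CCAAT box was held by 35.48% of subunits and 39.72% of all genes. These are matches of letters, not measured binding.

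In MCF10A the ATP synthase beta subunit ATP5B had the highest level per transcript length of the 84 genes, with a median FPKM of 1645 over the libraries (range 1323 to 1970). It was followed by ATP5J2 (1169), COX7C (1157), COX6B1 (1025) and COX6C (838), whose ranges overlap one another. Core electron-carrying subunits were less abundant: NDUFV1, which binds NADH and FMN, had a median FPKM of 280, SDHA, the flavoprotein of succinate dehydrogenase, 80.2, NDUFS1 51.8 and the Rieske iron-sulfur protein UQCRFS1 29.3. RPE-1 had ATP5B at 1133 and COX7C at 835 as its highest. The widely expressed isoforms carried the signal in both lines, with MCF10A medians of 255 for COX6A1 and 656 for COX7A2, and with all 3 genes for the c-ring subunit expressed, ATP5G1 at 375, ATP5G2 at 289 and ATP5G3 at 338. Their muscle or germline counterparts were nearly silent: over the 32 libraries COX6A2 had 0 counts, COX7B2 had 2, COX7A1 had 3 and COX8C had 37. Levels of FPKM in the 2 lines come from separate experiments with different media and are set side by side only.

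**Figure D1:**
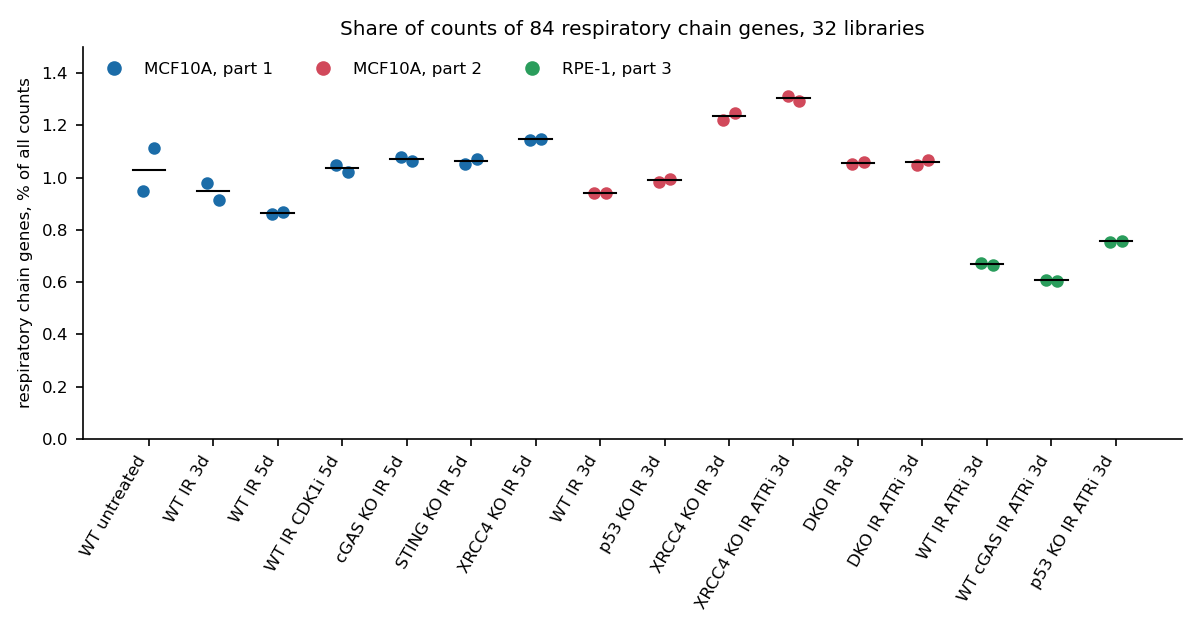
Percent of each library's estimated counts that fell on the 84 respiratory chain genes, 1 point per library for the 16 groups, with a line at the group mean. The highest values are the XRCC4 KO groups 3 days after irradiation, 1.221 to 1.312%, and the lowest the WT cGAS group of RPE-1, 0.605 and 0.607%.

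As a share of all counts, the 84 genes took 0.941 and 0.942% in WT, 0.984 and 0.996% in p53 KO, 1.221 and 1.249% in XRCC4 KO and 1.051 and 1.060% in the DKO of the second experiment. XRCC4 KO lay above the other genotypes without overlap, and the DKO lay between p53 KO and XRCC4 KO. With ATRi the shares were 1.312 and 1.295% in XRCC4 KO and 1.049 and 1.067% in the DKO. In the first experiment XRCC4 KO had the highest shares too, 1.145 and 1.148%, above 0.859 and 0.869% in WT at the same 5 days, while the 2 untreated libraries, 0.949 and 1.112%, spanned much of the range. In RPE-1 the shares were 0.674 and 0.667% in WT, 0.607 and 0.605% in WT cGAS and 0.753 and 0.758% in p53 KO. A share depends on every other gene in the library, and the tests below do not use it.

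The first question was how irradiated cells without XRCC4 compare with WT. At 3 days after 10 Gy the transcripts of all 5 complexes were higher in XRCC4 KO: 73 of the 82 genes tested rose and 1 fell, with a median log2 fold change of 0.52. Over all 16632 genes tested, 28.6% rose and 27.9% fell, with a median of -0.01. By complex, 34 of 37 tested subunits rose in complex I, 4 of 4 in complex II, 8 of 8 in complex III, 10 of 11 in complex IV and 15 of 15 in complex V. Complex III had the highest median, 0.72, and complex II the lowest, 0.40.

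In complex I, NDUFV1 was at 365 and 363 CPM in XRCC4 KO against 197 and 194 in WT, a log2 fold change of 0.90 ± 0.05 (SE, n = 2 libraries a group; edgeR adjusted p = 5.76e-17). The groups were far apart relative to their replicates, which differed by a few CPM. The accessory subunits NDUFA2, NDUFB7 and the iron-sulfur subunit NDUFS7 were the largest risers, with log2 fold changes of 1.11 ± 0.06, 1.08 ± 0.06 and 1.04 ± 0.06. NDUFS1, the large iron-sulfur subunit that takes electrons from NDUFV1, rose by only 0.22 ± 0.05, and NDUFB8, often used as a protein marker of assembled complex I, by 0.27 ± 0.06. NDUFC1, an accessory subunit, was the gene that fell, from 42.5 and 44.3 CPM in WT to 35.5 and 36.0.

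In complex II, SDHD, a membrane anchor, was at 119 and 116 CPM against 60.4 and 62.6 (0.93 ± 0.06). The catalytic SDHA was at 158 and 159 CPM against 145 and 146, and its 0.12 ± 0.04 was the smallest rise of the complex (edgeR adjusted p = 0.022). SDHB rose by 0.44 ± 0.05. In complex III, UQCRB, a small subunit near the ubiquinone site, was at 311 and 316 CPM against 126 and 120, the largest change of any subunit (1.35 ± 0.07, edgeR adjusted p = 1.5e-10). UQCR11 (1.09 ± 0.05), UQCRQ (0.97 ± 0.05) and UQCRFS1 (0.92 ± 0.05) rose beside it, and the core protein UQCRC1 rose by 0.50 ± 0.05.

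In complex IV, COX6B1, which faces the intermembrane space, was at 303 and 309 CPM in XRCC4 KO against 139 and 138 in WT (1.14 ± 0.05). COX6C and COX8A rose by 0.93 ± 0.04 and 0.86 ± 0.07 and COX5A by 0.65 ± 0.05. COX6B2, a testis isoform, was the subunit not called, at 2.56 and 1.41 CPM against 2.84 and 2.99. In the ATP synthase, ATP5L, a membrane subunit known as g, was at 331 and 345 CPM against 163 and 163 (1.05 ± 0.04), and ATP5D, the delta subunit of the rotor stalk, was at 135 and 151 against 61.4 and 62.2 (1.21 ± 0.14). The catalytic pair ATP5A1 and ATP5B rose less, by 0.39 ± 0.04 and 0.33 ± 0.04. ATP5B went from 1000 and 1036 CPM to 1260 and 1307.

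On the deposited FPKM values the median gene of all moved by -0.14 in this comparison, so FPKM differences are read relative to that. The tested genes' median stood 0.53 above the median gene on counts and 0.43 above it on FPKM, and 55 rose and 2 fell by limma on log2(FPKM + 1), against 11.5% of all genes that rose and 26.6% that fell by that test. SDHA, NDUFS1 and SDHC turned direction on FPKM, to -0.05, -0.07 and -0.04. These 3 had been among the smaller rises on counts.

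**Figure D2:**
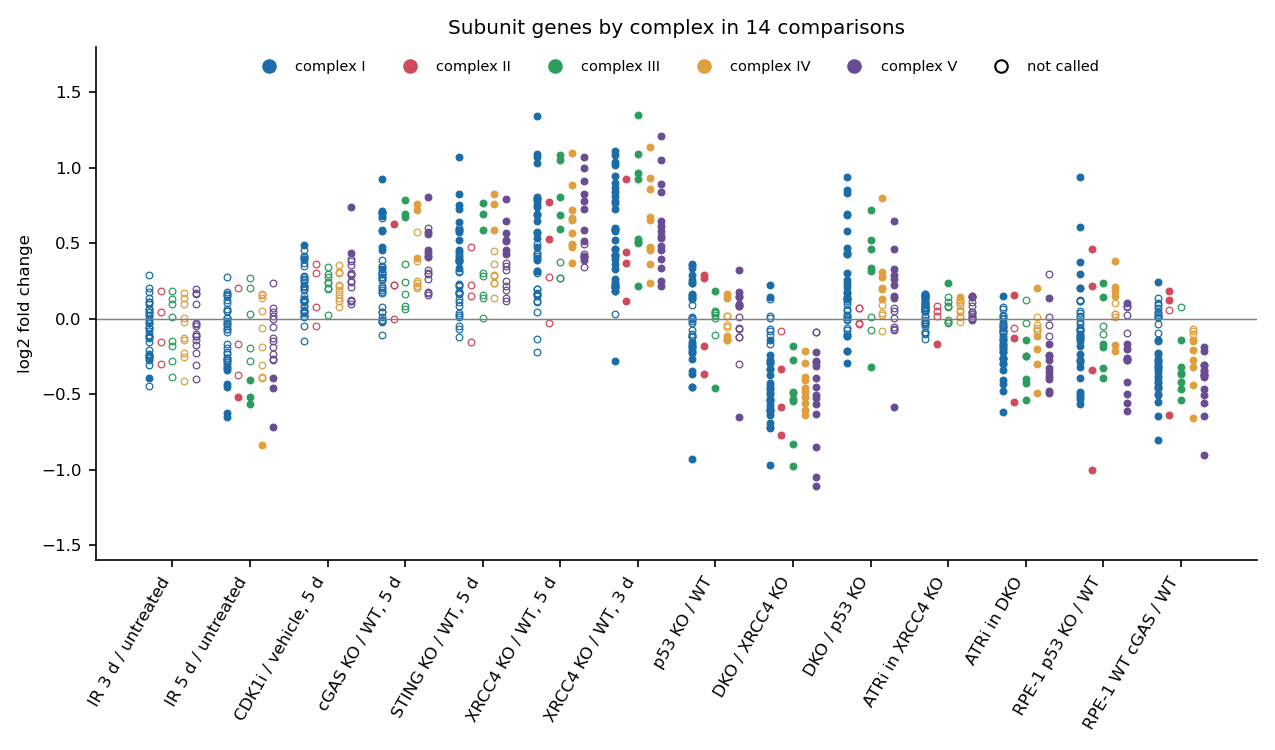
Log2 fold changes (edgeR, estimated counts) of the subunit genes in 14 comparisons, grouped by complex; each point is 1 gene, filled where adjusted p was below 0.05, and NDUFA4L2 and COX6B2 are not drawn because of their low counts. XRCC4 KO against WT lies almost wholly above 0 at 3 days (complex I had 34 higher and 1 lower of 37) and DKO against XRCC4 KO almost wholly below it (2 higher and 28 lower of 37).

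Genes that build or regulate the chain were looked at from lists of related genes. In no comparison were the listed genes set against the other genes of their own chromosomes. Of 53 tested assembly and associated genes 36 rose and 3 fell in XRCC4 KO at 3 days, and of 17 genes of the tricarboxylic acid (TCA) cycle 14 rose and 1 fell, while of 18 glycolysis genes 5 rose and 9 fell. LYRM7 and UQCC3, assembly factors of complex III, were the largest risers: LYRM7 was at 42.8 and 38.1 CPM against 15.8 and 15.7 (1.36 ± 0.09), and UQCC3 at 37.6 and 40.1 against 17.3 and 17.6 (1.15 ± 0.08). The complex IV subunit COX4I1 rose by 0.58 ± 0.04, the copper chaperone SCO2, a known p53 target, by 0.36 ± 0.08 and NDUFAB1, the acyl carrier protein that also sits in complex I, by 0.18 ± 0.05. Of 15 regulators of mitochondrial biogenesis 8 rose and 2 fell, GABPA and GABPB1, which encode the chains of the ETS factor GABP (-0.35 ± 0.12 and -0.20 ± 0.08). The largest rise was that of the coactivator PPARGC1B, at 49.5 and 47.1 CPM against 15.5 and 15.8 (1.62 ± 0.08). ESRRA, the estrogen-related receptor alpha, was at 218 and 226 CPM against 116 and 114 (0.95 ± 0.05). TFAM, which packages and transcribes mitochondrial DNA, was at 47.8 and 45.9 against 50.3 and 50.1 (-0.10 ± 0.07, edgeR adjusted p = 0.2), and PPARGC1A was at most 1.69 CPM in these 4 libraries.

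Several chromosomes moved as a whole in the XRCC4 KO clone, which bears on genes that lie there; copy number was not measured, and its part in the result was not tested. The median log2 fold change of the other genes was 0.40 on chromosome 8, 0.44 on chromosome 11, 0.48 on chromosome 13 and 0.36 on chromosome 19. The 3 respiratory genes on chromosome 8 had a median of 1.02, the 9 on chromosome 11 had 0.86 and the 11 on chromosome 19 had 0.95. UQCRB lies on chromosome 8, NDUFV1, SDHD and ATP5L on 11, and COX6B1, NDUFS7 and UQCR11 on 19. When each gene was set against the median of the other genes of its own chromosome, the median difference over the 82 genes was 0.50, with 77 genes above and 5 below. NDUFA2 on chromosome 5 stood 1.07 above its chromosome, ATP5O on 21 stood 1.03 above, NDUFA4 on 7 stood 1.00 above and UQCRB stood 0.95 above. A second property that moved was length: genes of up to 732 bases had a median of 0.04 and those of 1973 bases or more -0.11, and the tested respiratory genes are short, with a median length of 635 bases. The 18 genes of a G2-M list all fell, with a median of -0.55. Neither was tested as a part of the result.

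At 5 days after irradiation, in separate libraries, XRCC4 KO again had higher levels: 47 of 83 genes rose and 0 fell, with a median of 0.49, against 11.9% of all genes that rose and 12.1% that fell. At an unadjusted p under 0.05, 63 passed in either direction. By edgeR 20 of 38 tested subunits rose in complex I, 2 of 4 in complex II, 5 of 8 in complex III, 9 of 11 in complex IV and 11 of 15 in complex V. NDUFA4 was at 243 and 263 CPM against 96.9 and 103 in WT, the largest rise (1.34 ± 0.15, edgeR adjusted p = 0.000505). COX6B1 was at 275 and 324 CPM against 138 and 142 (1.098 ± 0.208), UQCRB at 312 and 276 against 137 and 140 (1.09 ± 0.14) and ATP5L at 291 and 303 against 139 and 144 (1.07 ± 0.12). NDUFV1 was at 288 and 280 CPM against 175 and 178 (0.69 ± 0.10). SDHA was at 136 and 129 CPM against 138 and 132, with overlapping libraries. Leaving out 1 library at a time left 27 to 32 calls, 27 without WT replicate 2 and 27 without XRCC4 KO replicate 2. On FPKM 22 genes rose and 0 fell, against 2.53 and 9.33% of all genes, and the median gene of all moved by -0.20.

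Of the 81 genes tested at both times, 46 rose at both, which is 63.0% of the 73 that rose at 3 days and 97.9% of the 47 that rose at 5 days, and 0 were called in opposite directions. Over all 14969 genes tested at both times, 1546 rose at both, 33.1% of the 4671 that rose at 3 days and 86.0% of the 1797 that rose at 5 days. The share of the 5-day rises was thus high among all genes too. Of the 14969 genes, 80 (0.534%) were called in opposite directions. Across 75 subunits the Pearson correlation of the log2 fold changes was 0.80, against 0.70 across all genes, a description over genes that share libraries and are not independent. The labels do not say whether both experiments used the same clone. At 5 days the other genes of chromosomes 7, 8, 11 and 19 had medians of 0.31, 0.33, 0.35 and 0.29, and the respiratory genes stood 0.50 above their own chromosomes, 79 above and 4 below. Of the 18 G2-M genes 13 fell, with a median of -2.51. ESRRA was again higher, at 260 and 249 CPM against 130 and 109 (1.09 ± 0.17), as were CYCS, cytochrome c (0.96 ± 0.13), and the complex IV assembly factor COA4 (0.92 ± 0.09), while TFAM was lower (-0.71 ± 0.13). Of the assembly genes 17 of 53 rose and 0 fell.

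**Figure D3:**
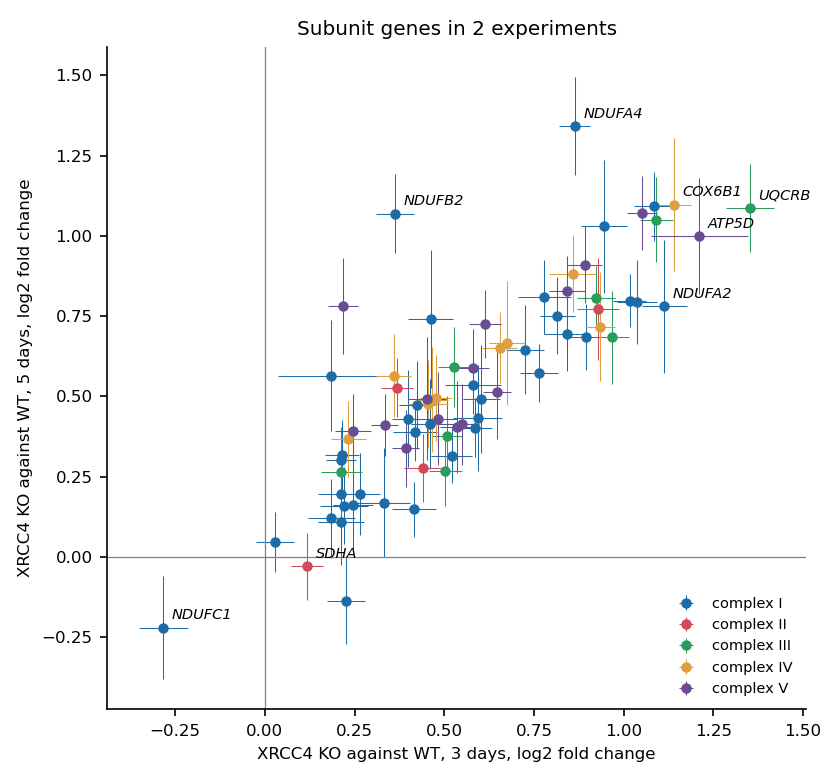
Log2 fold change of each subunit gene in XRCC4 KO against WT at 3 days (x axis) and at 5 days (y axis) after 10 Gy, in separate experiments of 2 libraries a group, with bars of 1 SE. Most points lie in the upper right, and UQCRB (1.35 and 1.09) and COX6B1 (1.14 and 1.098) are among the farthest out.

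The second experiment also let cells that lack p53 and XRCC4 be compared with cells that lack XRCC4 alone. In the DKO against XRCC4 KO, 65 of 82 genes fell and 2 rose, with a median of -0.46, against 32.7% of all genes that fell and 32.3% that rose. Subunits fell in every complex: 28 of 37 in complex I, 3 of 4 in complex II, 8 of 8 in complex III, 11 of 11 in complex IV and 13 of 15 in complex V. On FPKM, where the median gene moved by 0.20, 38 fell and 9 rose, against 13.9% of all genes that fell and 34.3% that rose by that test, and relative to the median gene the tested genes stood at -0.48 on counts and -0.36 on FPKM. NDUFB8, SDHA and COX5A, which fell on counts, turned direction on FPKM, to 0.03, 0.04 and 0.05.

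NDUFV1 was at 182 and 190 CPM in the DKO against 365 and 363 in XRCC4 KO (-0.97 ± 0.05, edgeR adjusted p = 3.67e-18), close to the 197 and 194 of WT. UQCRB was at 162 and 156 CPM against 311 and 316 (-0.98 ± 0.07), which leaves it above the 126 and 120 of WT. SDHC, the other membrane anchor of complex II, was at 103 and 103 against 173 and 178 (-0.77 ± 0.04). ATP5G2, 1 of the 3 c-ring genes, was at 73.0 and 73.9 CPM against 154 and 163, the largest fall (-1.11 ± 0.05), and ATP5D fell by 1.05 on the log2 scale. In complex IV COX8A was at 181 and 182 CPM against 280 and 285 (-0.64 ± 0.06). NDUFV2, which sits beside NDUFV1, rose slightly, from 88.8 and 94.3 to 100 and 102 CPM, as did NDUFC1. The iron-sulfur subunit SDHB was not called, at 119 and 122 CPM against 124 and 131.

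**Figure D4:**
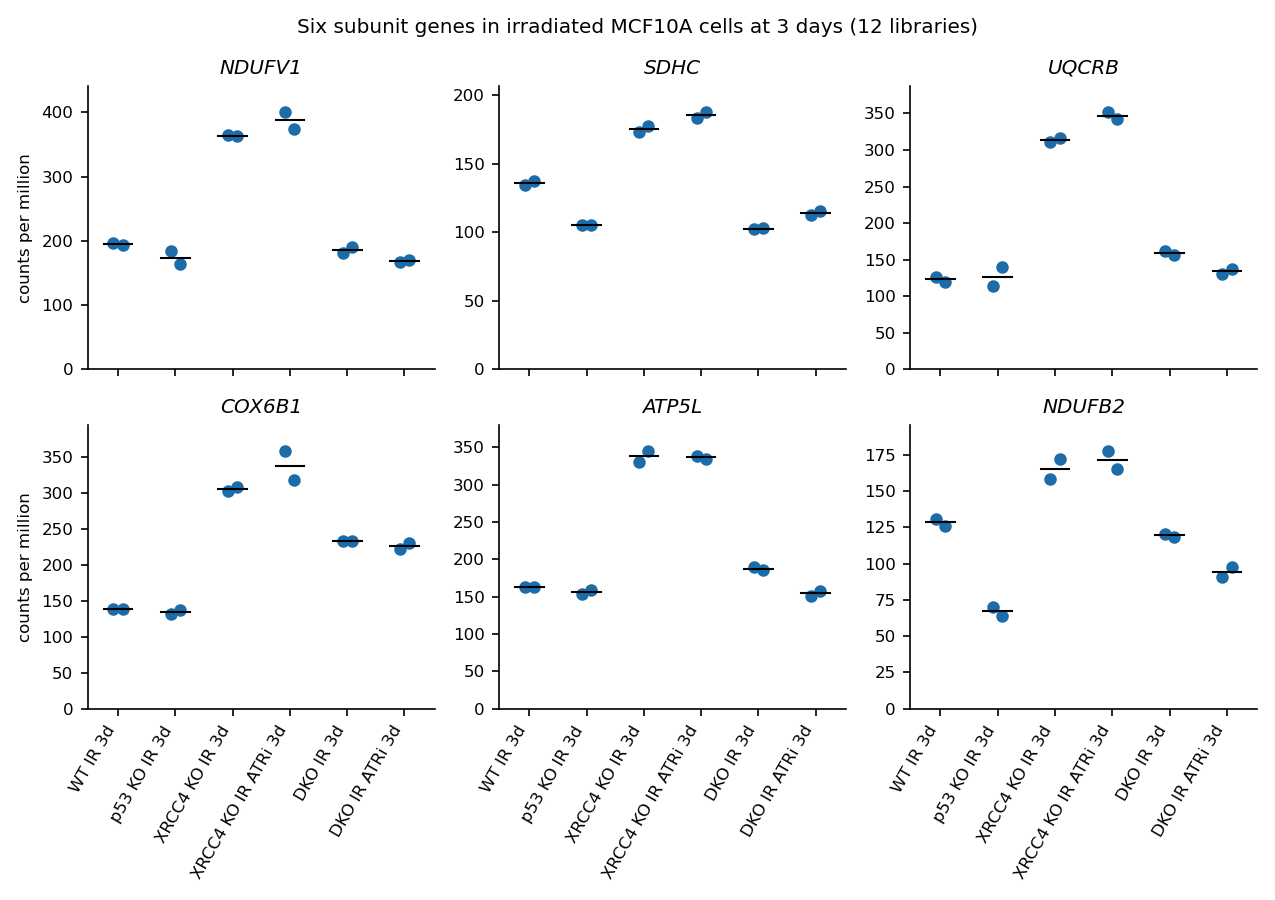
CPM of NDUFV1, SDHC, UQCRB, COX6B1, ATP5L and NDUFB2 in the 12 libraries of the second MCF10A experiment, 1 point per library with a line at the group mean. UQCRB is at 120 to 126 in WT, above 311 in XRCC4 KO and at 156 to 162 in the DKO; NDUFB2 is lowest in p53 KO, at 70.2 and 63.9.

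Of the assembly genes 2 rose and 31 fell in the DKO against XRCC4 KO, and of the TCA cycle genes 3 rose and 12 fell. ESRRA was at 79.5 and 78.1 CPM against 218 and 226 (-1.49 ± 0.05) and COA4 at 54.7 and 57.0 against 122 and 127 (-1.16 ± 0.05), and COX20, a chaperone of complex IV, fell from 51.7 and 47.0 to 22.5 and 21.1 CPM. SCO2 fell by 0.77 on the log2 scale. COA1, another complex IV assembly factor, rose from 35.1 and 36.4 to 92.7 and 87.7 CPM, TFAM rose by 0.84 ± 0.06 and NRF1 by 1.35 ± 0.11, from 8.93 and 11.2 to 25.4 and 25.6 CPM. Of the 15 regulators 6 rose and 6 fell. The other genes of chromosomes 8 and 11 had medians of -0.35 and -0.48, and the respiratory genes stood 0.40 below their own chromosomes (8 above and 74 below). All 18 G2-M genes rose, with a median of 3.11. The part of these in the result was not tested.

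In p53 KO against WT, the shares of respiratory chain genes that rose and fell were near those of all genes on counts. Of 82 genes 21 rose and 25 fell, with a median of -0.03, against 25.8% of all genes that rose and 26.9% that fell; by limma on FPKM, where the median gene moved by 0.10, 28 rose and 7 fell, against 23.5 and 12.1% of all genes. The falls were led by genes of chromosome 7. NDUFB2 was at 70.2 and 63.9 CPM against 131 and 126 (-0.93 ± 0.06) and ATP5J2, the ATP synthase f subunit, at 130 and 136 against 207 and 210 (-0.65 ± 0.04). NDUFA5 and the read-through transcript ATP5J2-PTCD1 fell as well. The 6 tested respiratory genes of chromosome 7 had a median of -0.68, and its 823 other genes a median of -0.51 in this clone, with copy number not measured. NDUFB2 overlaps its antisense gene NDUFB2-AS1, so their reads may not be told apart. Elsewhere UQCR11 fell from 132 and 135 to 93.5 and 101 CPM (-0.46 ± 0.05) and SDHC from 134 and 137 to 105 and 105 (-0.37 ± 0.05).

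Rises in p53 KO were smaller. NDUFA9 was at 89.1 and 84.2 CPM against 66.3 and 68.7 (0.36 ± 0.05), ATP5C1, the gamma subunit that turns inside the synthase, at 193 and 211 against 158 and 165 (0.32 ± 0.05) and SDHB at 114 and 116 against 91.4 and 96.0 (0.29 ± 0.05). NDUFS1 was at 153 and 162 against 154 and 161 CPM, with overlapping libraries. SDHA fell on counts by 0.18 on the log2 scale but stood at 0.03 on FPKM. SCO2 was lower, at 29.6 and 25.2 CPM against 36.8 and 32.3 (-0.32 ± 0.08), ESRRA was lower (-0.56 ± 0.06) and TFAM was higher, at 90.9 and 99.7 against 50.3 and 50.1 (0.92 ± 0.06). All 18 G2-M genes rose, with a median of 2.22.

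Whether the difference between cells without and with XRCC4 changes with p53 was tested as an interaction. Each knockout is a clone, so the edits and other differences between clones cannot be told apart. In p53-null cells, the DKO against p53 KO, 38 of 82 genes rose and 6 fell, with a median of 0.13. Over all genes 24.3% rose and 24.9% fell. By limma on FPKM 28 rose and 12 fell, against 12.4 and 17.7%. In this comparison the other genes of chromosomes 7 and 19 had medians of 0.48 and 0.35. The median difference of the 82 genes from the own chromosome was 0.14, with 59 above and 23 below. The interaction was lower than 0 for 62 genes and higher for 3, with a median of -0.38, against 23.1 and 21.3% of all genes; by limma on FPKM it was lower for 35 and higher for 3, against 8.67 and 13.9%. UQCRB rose by 1.35 ± 0.07 with p53 and by 0.34 ± 0.07 without it (interaction -1.02 ± 0.10, edgeR adjusted p = 6.19e-07). NDUFV1 rose by 0.90 ± 0.05 with p53 and stood at 0.09 ± 0.05 without it, where its libraries overlapped. SDHD stood at 0.93 ± 0.06 and 0.07 ± 0.06. ATP5G2 rose by 0.54 ± 0.05 with p53 and fell by 0.59 on the log2 scale without it, the largest interaction of a subunit (-1.12 ± 0.07). Whole chromosomes moved in the interaction too: the other genes of chromosome 11 had a median of -0.50, those of chromosome 8 -0.43 and those of chromosome 7 0.58. Against these medians UQCRB stood at -0.58, SDHD at -0.36, NDUFV1 at -0.30 and COX8A, also on chromosome 11, at -0.16. ATP5G2 on chromosome 12 stood at -1.15. In the interaction the median difference of the 82 genes from the own chromosome was -0.35, with 6 above and 76 below. Copy number was not measured, and its part in the result was not tested.

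Some genes were called higher with XRCC4 loss in both backgrounds. NDUFA4 had 0.86 ± 0.04 with p53 and 0.94 ± 0.04 without it, and the interaction of 0.08 ± 0.06 was not called (edgeR adjusted p = 0.338). In p53-null cells it was at 229 and 239 CPM against 118 and 126. It lies on chromosome 7, whose other genes had a median of -0.13 with p53 and 0.48 without it. Against its chromosome NDUFA4 stood 1.00 above with p53 and 0.47 above without it. Its interaction stood at -0.51 against the chromosome's median interaction of 0.58. COX6B1 had 1.14 ± 0.05 and 0.80 ± 0.05, and NDUFA2 1.11 ± 0.06 and 0.86 ± 0.06. Their interactions of -0.34 ± 0.07 and -0.26 ± 0.09 were called lower. COX6B1 lies on chromosome 19 and stood 0.78 above its other genes with p53 and 0.44 above without it. NDUFA2, on chromosome 5, stood 1.07 and 0.73 above. NDUFB2 and ATP5J2 had positive interactions, 0.47 ± 0.08 and 0.43 ± 0.06; both lie on chromosome 7, and both stood below the interaction's median of its other genes, at -0.12 and -0.15 against it. All 18 G2-M genes had a positive interaction, with a median of 0.91.

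The ATR inhibitor changed few of the genes in XRCC4 KO. Of 82 genes 8 rose and 1 fell, with a median of 0.06, against 7.16% of all genes that rose and 10.8% that fell. UQCRFS1 was at 158 and 154 CPM with ATRi against 128 and 137 without it (0.24 ± 0.05, edgeR adjusted p = 0.000407), and SDHA at 140 and 142 against 158 and 159 (-0.17 ± 0.04). The calls numbered 2 without XRCC4 KO replicate 1 and 5 without replicate 2, and 4 by DESeq2, 3 higher and 1 lower, against 2.84 and 7.08% of all genes. All 18 G2-M genes fell, with a median of -1.38.

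In the DKO the inhibitor lowered more of them: 43 of 82 fell and 5 rose, with a median of -0.14, against 32% of all genes that fell and 25.2% that rose; without DKO replicate 1, 39 fell and 0 rose. On FPKM, where the median gene moved by 0.12, 16 rose and 15 fell, against 24.3 and 11.9% of all genes, so the split depends on the scaling, and NDUFV1 and SDHB turned direction there, to 0.05 and 0.04. The falls included accessory, catalytic and core subunits. NDUFA10 was at 55.8 and 56.0 CPM with ATRi against 84.3 and 87.0 (-0.62 ± 0.05), SDHA at 86.8 and 84.9 against 124 and 128 (-0.55 ± 0.05), the core protein UQCRC2 at 144 and 146 against 208 and 213 (-0.54 ± 0.04), COX5A at 78.1 and 76.5 against 109 and 109 (-0.49 ± 0.05) and ATP5A1 at 444 and 439 against 618 and 615 (-0.48 ± 0.04). The groups did not overlap in these genes, which were picked for large falls or as anchor subunits. Overlap was not counted over all genes, so it does not set them apart. COX5B rose by 0.20 ± 0.05 and SDHC by 0.15 ± 0.05, while ATP5B did not pass, at 1032 and 1051 CPM against 1041 and 1026.

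The interaction of ATRi with p53 was lower than 0 for 44 genes and higher for 0, against 21.3% and 13.3% of all genes, and 46 passed an unadjusted p under 0.05 in either direction. It was called lower for 11 genes and higher for 0 by limma on FPKM, against 4.47 and 9.7% of all genes. ATP5G3 had the largest called one (-0.57), followed by NDUFA10 (-0.53 ± 0.07). Beside it, in the DKO with ATRi against the DKO, 13 of 17 TCA cycle genes and 16 of 18 glycolysis genes fell, COA1 went from 92.7 and 87.7 to 49.2 and 43.9 CPM (-0.96 ± 0.06), and all 18 G2-M genes fell, with a median of -1.15.

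In the first experiment, irradiated WT cells were set against untreated WT cells, and the counts of called genes moved with single libraries. The labels name DMSO for these irradiated groups but not for the untreated group, so DMSO and irradiation cannot be told apart here. At 3 days 0 genes rose and 1 of 83 fell by edgeR, with a median of -0.06, against 3.75% of all genes that rose and 2.65% that fell, and 13 passed an unadjusted p under 0.05. The gene was NDUFA10, at 111 and 99.5 CPM against 134 and 143 (-0.39 ± 0.09, edgeR adjusted p = 0.0345), and its call was lost when any 1 of the 4 libraries was left out. DESeq2 called 0 higher and 2 lower, against 5.62 and 3.29% of all genes. Without untreated replicate 2, 7 rose and 0 fell; without 3-day replicate 1, 2 fell; and without 3-day replicate 2 there were 0 calls.

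At 5 days 16 of 83 genes fell and 0 rose by edgeR, with a median of -0.17, against 13.3% of all genes that fell and 14.6% that rose. An unadjusted p under 0.05 was reached by 29. COX7A2L, a relative of COX7A2 known for joining complexes III and IV into supercomplexes, was at 66.5 and 67.2 CPM against 118 and 121 in untreated cells (-0.84 ± 0.12, edgeR adjusted p = 0.0013), and it stayed between -0.86 and -0.82 and was called whichever library was left out. NDUFA10 was at 87.0 and 89.3 against 134 and 143 (-0.65 ± 0.09) and kept its call as well, as did ATP5G2, NDUFS7 and SDHB. SDHB was at 89.9 and 80.2 CPM against 121 and 123 (-0.52 ± 0.11). Other calls were less steady: UQCRB, at 137 and 140 against 156 and 211, moved between -0.61 and -0.17. Without untreated replicate 1, 29 fell and 0 rose; without untreated replicate 2, 12 rose and 11 fell; and without either 5-day library 7 fell. By limma on FPKM 18 fell and 0 rose, against 8.82 and 6.9% of all genes, and in a fit of only these 4 libraries 2 fell.

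Of 53 assembly genes 14 fell and 3 rose at 5 days, of 17 TCA cycle genes 9 fell and 0 rose, and of 18 glycolysis genes 8 rose and 3 fell. HIGD2A, an assembly factor of complex IV, fell from 116 and 133 to 66.7 and 70.4 CPM (-0.86 ± 0.09), while its relative HIGD1A rose (0.63 ± 0.14). Fumarate hydratase, FH, of the TCA cycle fell from 231 and 244 to 139 and 146 CPM (-0.74 ± 0.08). The G2-M list had 0 calls of 18, but its mean log2 CPM was 3.26 in untreated replicate 1 and 5.04 in untreated replicate 2, so the 2 untreated libraries differed in it.

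The CDK1 inhibitor, given to irradiated WT cells for 5 days, went with 4 of 83 genes higher and 0 lower by edgeR. That is 4.82% of the 83, near the 4.27% of all genes that rose, while 6.41% of all genes fell. The median of the 83 was 0.22, against -0.04 over all genes. Among the 83, an unadjusted p under 0.05 was reached by 21, and DESeq2 called 11 higher and 0 lower, against 7.26 and 7.09% of all genes. ATP5G1 was at 115 and 108 CPM against 63.0 and 71.1 (0.74 ± 0.19, edgeR adjusted p = 0.0362) and NDUFB9 at 166 and 163 against 116 and 119 (0.49 ± 0.08). ATP5F1 and NDUFS1 were the others, at 0.44 ± 0.12 and 0.40 ± 0.11. The count was 0 without WT replicate 1, 1 without WT replicate 2, and 2 without either inhibitor library. COX7A2L, low in WT at 5 days, is drawn with these genes by library.

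**Figure D5:**
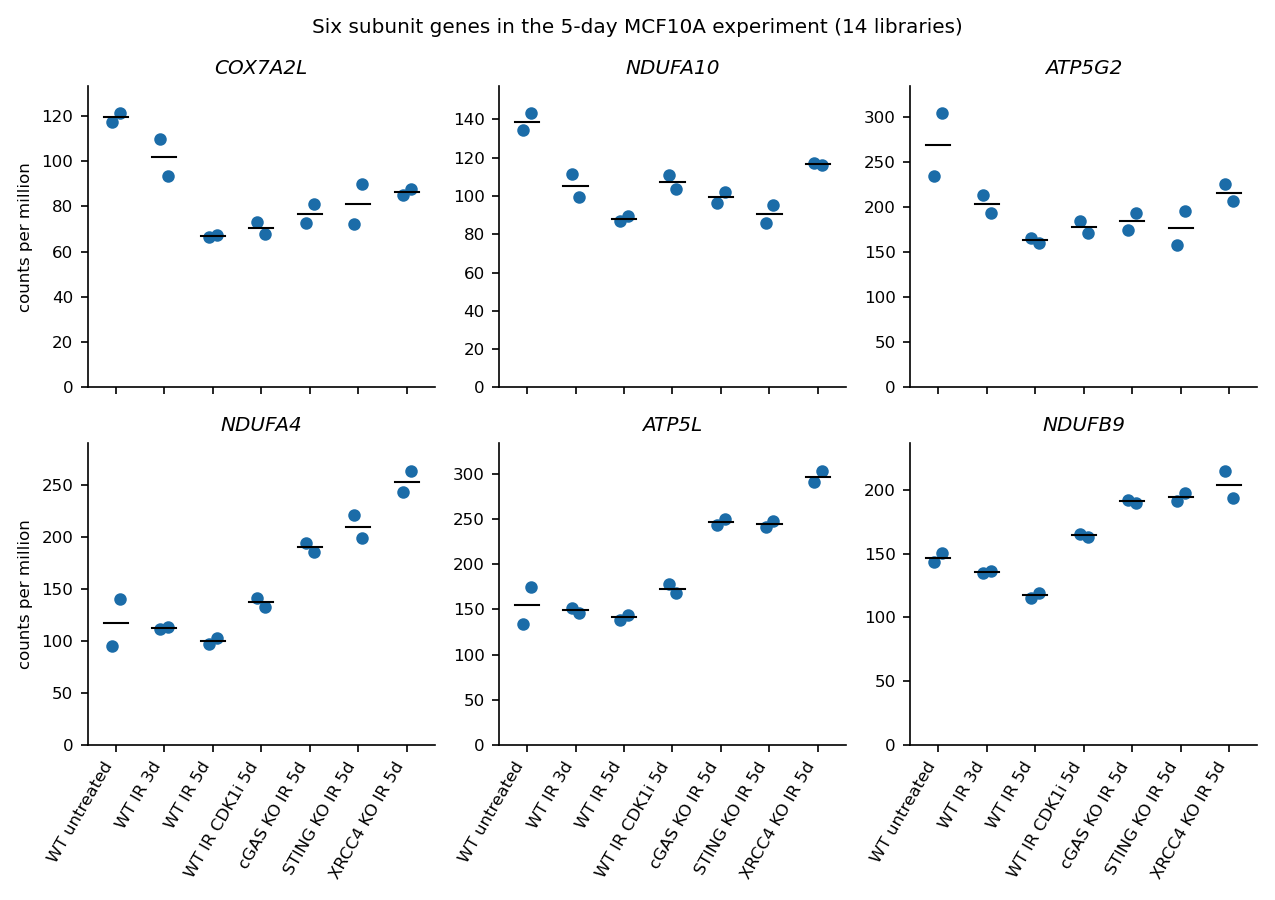
CPM of COX7A2L, NDUFA10, ATP5G2, NDUFA4, ATP5L and NDUFB9 in the 14 libraries of the first MCF10A experiment, 1 point per library with a line at the group mean. COX7A2L is at 117.5 and 121.1 in untreated WT and 66.5 and 67.2 in WT at 5 days; NDUFA4 is higher in cGAS KO, STING KO and XRCC4 KO (185.2 to 263.2) than in WT at 5 days (96.9 and 102.7).

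The other irradiated knockouts at 5 days were set against the same 2 WT libraries as XRCC4 KO, so their values are given side by side only. In cGAS KO 25 of 83 genes rose and 0 fell by edgeR, with a median of 0.30, against 6.21% of all genes that rose and 6.32% that fell, and 36 passed an unadjusted p under 0.05. In STING KO 26 rose and 0 fell, with a median of 0.32, against 7.06% and 7.1%, and 42 passed an unadjusted p under 0.05. By limma on FPKM 10 rose in cGAS KO and 12 in STING KO, with 0 lower, against 1.3% and 1.53% of all genes that rose. NDUFA4 was at 194 and 185 CPM in cGAS KO and 221 and 199 in STING KO against 96.9 and 103 in WT (0.93 ± 0.15 and 1.07 ± 0.15). ATP5L was at 244 and 250 CPM in cGAS KO and 241 and 248 in STING KO against 139 and 144 (0.80 ± 0.12 and 0.79 ± 0.12), and UQCRB at 249 and 228 and at 221 and 250 against 137 and 140 (0.79 ± 0.14 and 0.77 ± 0.14). NDUFV1 was at 271 and 259 and at 240 and 268 against 175 and 178. SDHA was not called in either, at 139 and 130 CPM in cGAS KO and 123 and 120 in STING KO against 138 and 132.

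These counts rested on few libraries. Leaving out 1 library gave 5 to 12 calls in cGAS KO (5 without its replicate 1, 10 without its replicate 2, 12 and 11 without WT replicate 1 or 2) and 8 to 17 in STING KO (17 and 12 without its replicate 1 or 2, 11 and 8 without WT replicate 1 or 2). A fit of only the 4 libraries compared gave 42 in cGAS KO and 16 in STING KO. All of these calls were higher. In both knockouts the other genes of chromosomes 7, 8, 11 and 19 had positive medians, 0.33, 0.30, 0.37 and 0.25 in cGAS KO and 0.34, 0.37, 0.38 and 0.23 in STING KO, and the respiratory genes stood 0.31 and 0.32 above their own chromosomes. UQCC3 was higher in both (0.93 ± 0.13 and 0.93 ± 0.13), as was ESRRA (0.81 ± 0.17 and 0.75 ± 0.17). UQCC3 and ESRRA were not set against their own chromosomes. Of the 18 G2-M genes 0 were called in either.

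In hTERT RPE-1 cells under 10 Gy and ATRi, p53 KO against WT changed the genes in both directions. Of 83 genes 17 rose and 33 fell, with a median of -0.08, against 34.3% of all genes that rose and 32.6% that fell; with no filter on low counts 11 rose and 36 fell, against 16.6 and 17.1%. On FPKM, where the median gene moved by 0.29, 42 rose and 9 fell, against 39.2 and 11.7% of all genes, and NDUFS1, NDUFV1, SDHA, ATP5A1, UQCRC2, COX7C and COX7A2L turned direction; relative to the median gene the tested genes stood at -0.11 on counts and -0.12 on FPKM. SDHC was at 44.8 and 41.9 CPM against 86.1 and 87.3 (-1.001 ± 0.057, edgeR adjusted p = 1.66e-13; -0.49 on FPKM), while SDHB of the same complex was at 90.0 and 90.1 against 64.0 and 66.8 (0.46 ± 0.06). NDUFA9 was at 134 and 137 against 72.1 and 69.0 (0.94 ± 0.05) and NDUFB9 at 86.5 and 93.7 against 59.1 and 59.3 (0.61 ± 0.06). ATP5G1 fell to 45.0 and 45.4 CPM from 69.1 and 69.0 (-0.61 ± 0.06), and COX8A rose by 0.38 ± 0.05. TFAM was higher, at 78.1 and 75.7 against 41.2 and 40.4 (0.91 ± 0.06), and all 18 G2-M genes rose, with a median of 1.96.

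The p53 KO lines of the 2 cell types share no library, although RPE-1 had ATRi and MCF10A did not. Of the 81 genes tested in both, 9 rose in both, which is 42.9% of the 21 that rose in MCF10A and 52.9% of the 17 in RPE-1, and 15 fell in both, 60% of 25 and 45.5% of 33. Over all 14322 genes tested in both, the shared rises were 57.8 and 46.2% of each list and the shared falls 60% and 50.8%. NDUFA9, SDHB, SDHD and UQCRFS1 were among the shared rises and SDHC, SDHA, UQCR11, NDUFV1 and NDUFB2 among the shared falls. Another 7 of the 81 genes were called in opposite directions, among them ATP5A1 and ATP5C1, against 1280 (8.94%) of all 14322 genes. Across 75 subunits the Pearson correlation of the log2 fold changes was 0.03, against 0.37 across all genes.

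The WT cGAS group had lower levels than WT: 55 of 83 genes fell and 4 rose, with a median of -0.31, against 30.2% of all genes that fell and 30% that rose. On FPKM, where the median gene moved by 0.17, 26 fell and 11 rose, against 13% and 28.4% of all genes, NDUFS1 and UQCRFS1 turned direction, and relative to the median gene the values were -0.33 on counts and -0.28 on FPKM. In the ATP synthase 15 of 15 tested subunits fell. ATP5G1 was at 37.5 and 36.1 CPM against 69.1 and 69.0 (-0.91 ± 0.06, edgeR adjusted p = 2.94e-12), NDUFA4 at 93.02 and 101.5 against 169 and 170 (-0.80 ± 0.05) and COX7C at 99.3 and 100.0 against 157 and 157 (-0.66 ± 0.05). ATP5B was at 572 and 556 against 732 and 747 (-0.39 ± 0.04). Against that, SDHA, SDHB and NDUFV2 rose, by 0.12 ± 0.05, 0.18 ± 0.06 and 0.24 ± 0.06, and the fourth rise was that of COX6B2, at 14 counts or fewer. SCO2 was at 32.9 and 34.6 CPM against 20.1 and 22.3 (0.67 ± 0.08) and ESRRA was higher (0.55 ± 0.07), while 11 of 17 TCA cycle genes fell and 2 rose. All 18 G2-M genes fell, with a median of -2.11, and their part was not tested. The WT cGAS and p53 KO groups share the 2 WT libraries.

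Very low members are given as levels only. NDUFA4L2, a hypoxia-linked relative of NDUFA4, had at most 43 counts in any library: it had 26 and 7 counts in untreated MCF10A, 2 and 2 in WT at 5 days, and 33 and 43 in RPE-1 p53 KO against 13 and 24 in RPE-1 WT. COX6B2 had at most 61 counts in any library. UQCRHL, an intronless copy of UQCRH, had a median FPKM of 5.29 in MCF10A against 358 for UQCRH, and reads of the 2 may be exchanged between them.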

How the data were processed

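The first deposited table holds estimated counts per gene, which the authors made for each library without normalising them: 96.04 to 97.28% of a library's values are whole numbers. FPKM, in the other deposited table, had been scaled by the authors for gene length and library depth. The tools listed in the submitters' processing notes are bcl2fastq, FastQC, STAR and Cuffnorm as well as DESeq2, with neither role nor version, and the listed build is hg19; no annotation release is named in the sources used here. All 32 columns of both tables were matched to a sample.

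Estimated counts were rounded and tested in R 4.3.3 with edgeR 4.0.16 (filterByExpr by group, TMM, robust quasi-likelihood F test), 1 fit per experiment over all its libraries, which tested 15190, 16632 and 15469 genes with 7, 6 and 3 residual degrees of freedom. Benjamini-Hochberg adjustment ran over every gene in the fit, and the standard error was the absolute log2 fold change divided by the square root of F. The code was tested on simulated data. Alternatives were DESeq2 1.42.0, RLE factors, no filter on low counts, a fit of only the libraries compared, limma 3.58.1 on log2(FPKM + 1) with a mean FPKM of at least 1 in a group, a replicate block and leaving out each library. Figures were drawn with matplotlib 3.10.9.

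The genes and lists were chosen with earlier results of these data known. In each comparison the text names up to 3 called genes per complex and direction with the largest change, a set of anchor subunits, isoforms, and of the other lists SCO2, COX4I1, NDUFAB1, TFAM, ESRRA, PPARGC1A and up to 2 called genes per list and direction. The chromosome and length descriptions, the low-count levels, NDUFA4 and NDUFA2 in the interaction, COX6B1, ATP5L, NDUFV1 and UQCRB across comparisons and the genes drawn were chosen after values were seen. Promoters are from RefSeq (GRCh38.p14), matched by gene ID through current symbols. No genome of the hg19 build was used here. Each group has 2 libraries, so precision is limited.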

Additional observations from a re-analysis of the deposited data

Results flagged for a closer look

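The difference that went with XRCC4 loss was not the same in p53-proficient and p53-null MCF10A clones for 65 of the 82 genes tested. Over all 16632 genes the share was 44.3%. The test was the interaction term in edgeR over the 8 libraries without ATRi, within the fit of the second experiment. The gene with the largest called interaction in each complex was NDUFV1 (-0.803) in complex I, SDHD (-0.856) in complex II, UQCRB (-1.016) in complex III, COX8A (-0.659) in complex IV and ATP5G2 (-1.123) in complex V, all log2 differences of the XRCC4 effect without p53 minus that with it. NDUFV1, SDHD and COX8A lie on chromosome 11, whose other genes had a median interaction of -0.50, and stood at -0.30, -0.36 and -0.16 against it. UQCRB lies on chromosome 8, where that median was -0.43, and stood at -0.58 against it. Copy number was not measured, and its part in these differences was not tested.

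The effect of the ATR inhibitor differed between XRCC4 KO and DKO cells for 44 of the 82 genes, against 34.6% of all genes tested. The test was of the same kind. In complex I the largest called difference was that of NDUFA10 (-0.53), in complex II of SDHA (-0.386), in complex III of UQCRC2 (-0.515), in complex IV of COX5A (-0.509) and in complex V of ATP5G3 (-0.574). A minus sign means a lower log2 effect of the inhibitor in the DKO.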

How the results depend on the processing

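Counts of called genes moved by over 1.5 times under some alternatives; the cause was not tested. In WT cells 3 days after irradiation the count of 1 became 2 by DESeq2. It became 0 with no filter on low counts, on FPKM by limma or in a fit of only the libraries compared. At 5 days the count of 16 became 2 in that last fit. For CDK1i the 4 calls became 11, 7, 1 and 0 under these 4 alternatives in that order. On FPKM the counts were 10 for cGAS KO, 12 for STING KO, 22 for XRCC4 KO at 5 days, 3 for ATRi in XRCC4 KO, 31 for ATRi in the DKO, 11 for the interaction of ATRi with p53, 38 for that of XRCC4 loss with p53 and 37 for WT cGAS. In a fit of only the libraries compared, cGAS KO had 42 and STING KO 16. ATRi in XRCC4 KO had 4 by DESeq2. Leaving out 1 library at a time gave 0 to 7 calls for irradiation at 3 days, 7 to 29 at 5 days, 0 to 2 for CDK1i, 5 to 12 for cGAS KO, 8 to 17 for STING KO, 27 to 32 for XRCC4 KO at 5 days and 2 to 8 for ATRi in XRCC4 KO; a group left with 1 library is assumed to vary like the others.

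Log2 fold changes of named genes reversed only on FPKM among the alternatives run. They were 0.031 for SDHA in p53 KO; -0.074 for NDUFS1, -0.045 for SDHA and -0.04 for SDHC in XRCC4 KO at 3 days; and 0.028 for NDUFB8, 0.042 for SDHA and 0.053 for COX5A in the DKO against XRCC4 KO. For ATRi in the DKO they were 0.048 for NDUFV1 and 0.035 for SDHB, and for its interaction with p53 0.102 for ATP5B. In RPE-1 p53 KO they were 0.229 for NDUFS1, 0.077 for NDUFV1, 0.042 for SDHA, 0.004 for ATP5A1, 0.028 for UQCRC2, 0.028 for COX7C and 0.099 for COX7A2L, and in WT cGAS 0.185 for NDUFS1 and 0.051 for UQCRFS1.

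Libraries of different groups carry the numbers 1 and 2, and the correlation of same-numbered libraries' deviations was -0.27 to 0.44 in the first experiment, -0.05 to 0.06 in the second and -0.02 to 0.03 in the third, so the numbers were not taken to pair them. With the replicate number as a block, 74 genes were called in XRCC4 KO at 3 days, 47 at 5 days and 67 in the DKO against XRCC4 KO. In WT 5 days after irradiation 15 were called, and 60 in WT cGAS. Each block count, for these and the other comparisons, was within 1.5 times the count without the block. Depth limits NDUFA4L2, COX6B2 and the antisense genes, whose differences are not interpreted.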
